A study of Oryza sativa with 6 samples.

Results

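The clade A protein phosphatases 2C (PP2C) are the family of phosphatases at the centre of abscisic acid signalling. Their transcripts were followed in the oschz1 mutant of rice (Oryza sativa, cultivar Nipponbare), against wild-type plants. The 9 members, PP2C06, PP2C08, PP2C09, PP2C30, PP2C49, PP2C50, PP2C51, PP2C53 and PP2C68, were taken by locus identifier, and all 9 were among the 30020 genes of the table. The mutant is homozygous for a CRISPR/Cas9 deletion that brings an early stop codon into OsChz1, the gene of a histone chaperone that binds H2A-H2B and H2A.Z-H2B dimers, and the plants were free of the transgene. The labels name the genotype oschz1 only, and the study's text names the allele used for RNA-seq as oschz1-1, so that a lone allele stands for the mutant. Poly(A) RNA was sequenced from 3 samples of oschz1 seedlings and 3 samples of wild-type seedlings, all 30 days old. Both genotypes grew for 10 days in half-strength MS medium, followed by 20 days at full strength, under a daily cycle of 14 h light (30 °C) and 10 h dark (28 °C), and no hormone or stress treatment is named for either. Each RNA sample was a pool of seedlings, and the study describes the samples as biological replicates without saying whether they were grown apart, so that the p-values cover only the variation among these pools.

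Abscisic acid is the hormone of drought, salt stress and seed dormancy in plants. In its absence, clade A PP2Cs bind certain members of the SnRK2 kinase family, named SAPK in rice, and keep them dephosphorylated and inactive. When the hormone binds its soluble PYL receptors, the receptors dock onto the phosphatases and block their active site, so that the kinases are released and phosphorylate bZIP transcription factors of the ABF and ABI5 type. In rice and Arabidopsis, many clade A PP2C genes are themselves induced by the hormone, so that the phosphatases act as a brake on the pathway and are also among its outputs.

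None of the 9 phosphatase genes passed as changed in oschz1. No member rose and none fell at the thresholds that the study used (1.5-fold or more, with the adjusted p not above 0.05), whereas 7.58% of the 25945 tested genes were called, 6.24% as risen and 1.34% as fallen. None passed the adjusted p alone either, against 18.0% of the tested genes. Before adjustment, the DESeq2 Wald test gave p below 0.05 for 2 of the 9 members (22.2%), PP2C06 and PP2C49, against 27.0% of the tested genes. The same 2 members were the ones with an adjusted p of at most 0.1, a limit met by 21.9% of the tested genes. The log2 fold changes of 6 members were above 0 and those of 3 were below 0, and the median log2 fold change of the members was 0.10, against -0.0049 over all tested genes. The median size of the log2 fold change without its sign was 0.14 for the members and 0.18 for all tested genes. These and all further fold changes, standard errors (SE) and p-values are those of the fit that the authors deposited. A positive value was taken as higher in oschz1: the header does not name the numerator, and this direction comes from the study's description of more upregulated than downregulated genes.

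**Figure D1:**
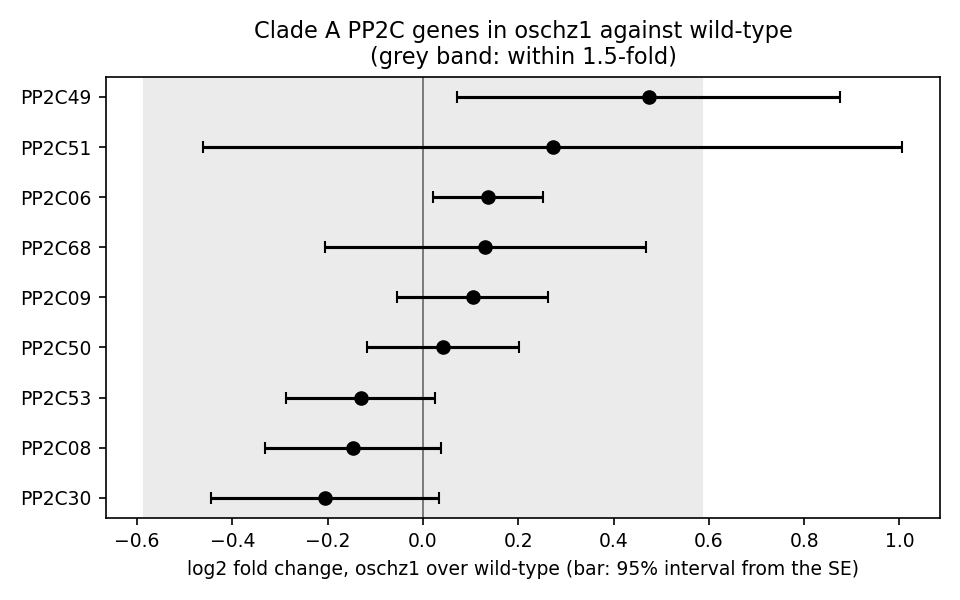
Log2 fold change of each clade A PP2C gene in oschz1 over wild-type, with the 95% interval from its SE as a horizontal bar and the range within 1.5-fold in grey. The intervals of PP2C49 and PP2C51 reach beyond 1.5-fold on the upper side, while those of the other 7 genes lie inside the grey band.

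The table holds a mean normalized read count over the 6 libraries and no value of a single library. The level of each genotype was therefore derived from this mean and the fold change, and is an implied mean of 3 libraries, not a measured value per sample. The counts are not divided by gene length, so that a level compares genotypes for a gene and not genes with each other. Bulk seedling tissue was sampled, in which fewer cells of a type and less RNA per cell cannot be told apart.

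PP2C06, PP2C53 and PP2C50 also carry the names ABIL1, ABIL2 and ABIL3 in the RefSeq gene table, for their likeness to ABI1 of Arabidopsis, the phosphatase in which a dominant mutation makes plants insensitive to abscisic acid. PP2C06 (LOC_Os01g40094) had an implied level of 2296 normalized reads in oschz1 and 2089 in wild-type, a log2 fold change of 0.14 ± 0.06 (± SE, 95% interval 0.02 to 0.25, adjusted p = 0.0924). It was the most precisely measured member, and its interval did not include 0 but stayed far from 1.5-fold, with an upper bound of 1.19-fold. PP2C53 (LOC_Os05g51510) was at 922 normalized reads in oschz1 and 1010 in wild-type (-0.13 ± 0.08, interval -0.29 to 0.03, adjusted p = 0.298). PP2C50 (LOC_Os05g46040), whose protein has been crystallized together with a rice abscisic acid receptor, was at 836 in oschz1 and 812 in wild-type, a log2 fold change of 0.04 ± 0.08 (interval -0.12 to 0.20, adjusted p = 0.823). Of all members, PP2C50 had the fold change nearest to 1, at 1.03. The 3 ABI1-like genes thus differed by 0.91-fold to 1.10-fold between the genotypes.

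PP2C30, PP2C09 and PP2C08 were each measured with over 1000 reads per genotype. PP2C30 (LOC_Os03g16170), a partner of the kinase SAPK2 and of an abscisic acid receptor in rice, had the lowest fold change of the family. Its implied level was 341 normalized reads in oschz1 and 393 in wild-type, a log2 fold change of -0.21 ± 0.12 (interval -0.44 to 0.03, adjusted p = 0.28). The interval ran from 0.73-fold to 1.02-fold. PP2C08 (LOC_Os01g46760) lay at 536 normalized reads in oschz1 and 594 in wild-type (-0.15 ± 0.09, interval -0.33 to 0.04, adjusted p = 0.33). PP2C09 (LOC_Os01g62760), a gene known in rice for restraining abscisic acid responses while favouring growth, was at 1878 in oschz1 and 1747 in wild-type (0.10 ± 0.08, interval -0.05 to 0.26, adjusted p = 0.455). For each of the 3 genes the interval included 0.

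The members with the fewest reads had the widest intervals. PP2C49 (LOC_Os05g38290) had the highest fold change of the family: its implied level was 141 normalized reads in oschz1 and 102 in wild-type, a log2 fold change of 0.47 ± 0.20 (interval 0.07 to 0.88, adjusted p = 0.0956). In fold terms this was 1.39, with an interval from 1.05 to 1.83, so that an increase of 1.5-fold lay inside it. PP2C68 (LOC_Os09g15670), a phosphatase that lowered the response to abscisic acid when expressed in Arabidopsis, was at 169 in oschz1 and 155 in wild-type (0.13 ± 0.17, interval -0.21 to 0.47, adjusted p = 0.716). PP2C51 (LOC_Os05g49730), which promotes seed germination in rice, had the fewest reads of the family, at 30.9 normalized reads in oschz1 and 25.6 in wild-type. Its log2 fold change was 0.27 ± 0.37 (interval -0.46 to 1.01, adjusted p = 0.732), and about 102 reads in the 3 oschz1 libraries together and 81 in the 3 wild-type libraries lay behind it.

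**Figure D2:**
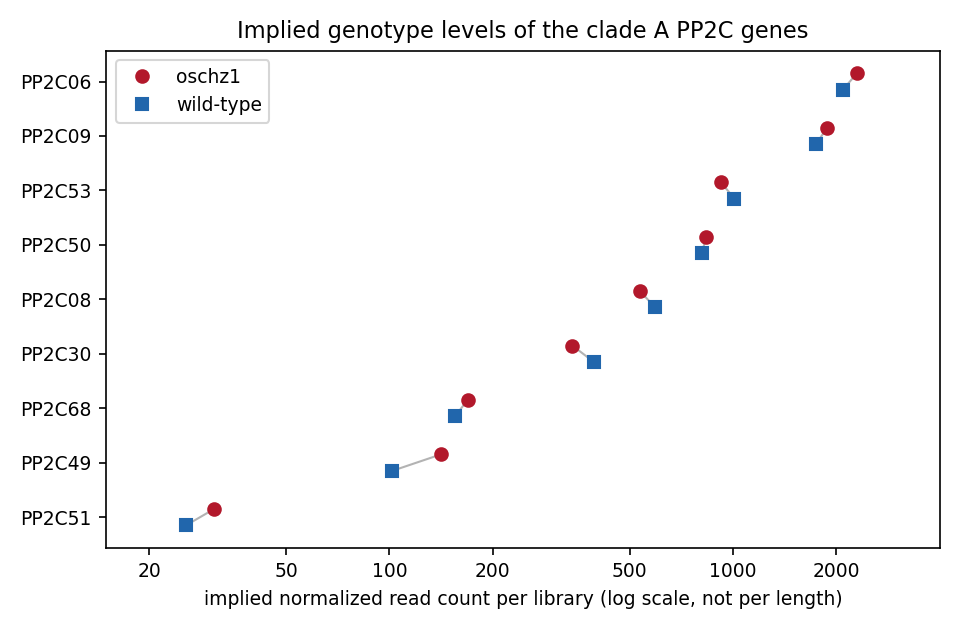
Implied normalized read count per library of each clade A PP2C gene in oschz1 (circles) and wild-type (squares) on a log scale, in order of the mean over both genotypes. The counts run from 30.9 in oschz1 and 25.6 in wild-type for PP2C51 to 2296 in oschz1 and 2089 in wild-type for PP2C06, and the 9 genes stand in the same order in both genotypes.

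The family as a whole was at nearly the same summed level in both genotypes. Added over the 9 genes, the implied normalized reads were 7150 in oschz1 and 6926 in wild-type, a ratio of 1.03, for which no error can be given since the errors of genes from the same libraries are not independent. These sums stand for about 23455 reads in oschz1 and 21792 reads in wild-type over 3 libraries each. PP2C06 and PP2C09 supplied 58.4% of the family's reads in oschz1 and 55.4% in wild-type, and PP2C51 supplied 0.433% in oschz1 and 0.37% in wild-type. All 9 genes kept their rank of read count between the genotypes. The mean normalized count of the highest member was 77.5 times that of the lowest. These shares, ranks and this ratio are of reads not divided by gene length, so that they do not order the genes by amount of transcript.

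The smallest observed difference that could pass the adjusted p was set by the SE, which ran from 0.06 for PP2C06 to 0.37 for PP2C51. The Wald statistic had to reach 2.61 for a gene to pass the adjusted p. For PP2C06 this corresponded to a 1.11-fold difference, for PP2C53 to 1.15-fold, for PP2C09 and PP2C50 to 1.16-fold, for PP2C08 to 1.19-fold and for PP2C30 to 1.25-fold. Observed differences of 1.36-fold in PP2C68 and 1.45-fold in PP2C49 could also have passed. For 8 of the 9 members an observed 1.5-fold difference would thus have passed the adjusted p. PP2C51 needed 1.97-fold, so that an observed 1.5-fold difference of this gene would not have passed with its SE. These are limits on the observed difference, and a true change of the same size can be estimated lower and missed.

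The 95% interval lay entirely within 1.5-fold in either direction for 7 members (77.8%), against 56.7% of the tested genes. The members had more reads than most genes, with a median mean normalized count of 565 against 244 for all tested genes, and such an interval is met more often at higher counts. Among genes of like mean, taken as those within 1.3-fold of a member's mean, it was met by 96.3% near PP2C06 and by 53.4% near PP2C49. The share was 96.4% near PP2C09, 93.6% near PP2C53, 93.8% near PP2C50, 91.1% near PP2C08 and 85.7% near PP2C30. It was 65.4% near PP2C68 and 0% near PP2C51. The SE of PP2C06 was 0.06, as was the median SE of genes of like mean. That of PP2C49 was 0.20 against 0.19, and that of PP2C51 was 0.37 against 0.39. DESeq2 draws a gene's dispersion, its fitted spread beyond counting error, toward that of genes of like mean. This closeness is therefore partly set by the method. The fitted dispersion that the SEs imply, as a coefficient of variation, was 4.47% for PP2C06, 6.39% for PP2C09, 14.7% for PP2C49 and 25.4% for PP2C51. It is a value of the fit and not a spread measured between the libraries of a gene.

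Genes with read counts like those of the members were called at different rates. Near the mean of PP2C09, 1.72% of 1801 genes were called, near that of PP2C06 1.9% of 1524 genes, and near that of PP2C08 4.48% of 2991 genes. The rates were higher at low counts, 13.9% of 1916 genes near PP2C49 and 13.7% of 1319 genes near PP2C51. By the adjusted p alone, between 13.7% and 30.6% of the genes of like mean passed, the highest share being that near PP2C06. Whether the family was called less often than other genes was not tested.

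**Figure D3:**
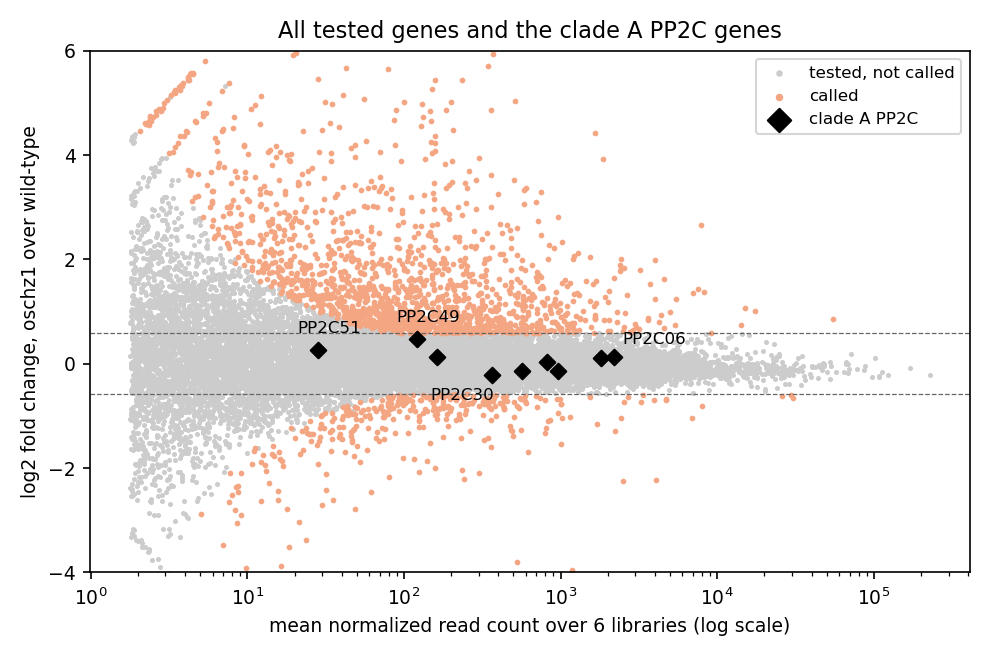
Log2 fold change in oschz1 over wild-type against the mean normalized read count of all 25945 tested genes, with called genes in orange, the clade A PP2C genes as black diamonds and 1.5-fold as dashed lines; 89 genes lie outside the range of -4 to 6 that is drawn. The diamonds lie between -0.21 and 0.47 on the log2 scale, inside the dashed lines.

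The 95% intervals of 33 of the 36 pairs of members overlapped. The other 3 pairs all involved PP2C49, whose interval (0.07 to 0.88) lay above those of PP2C08, PP2C30 and PP2C53, with a distance of 0.68 on the log2 scale between the fold changes of PP2C49 and PP2C30. This is a description, since genes measured in the same libraries do not have independent errors.

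The identifiers place 3 of the genes on chromosome 1, 1 on chromosome 3, 4 on chromosome 5 and 1 on chromosome 9. The 4 members on chromosome 5 had log2 fold changes of 0.47 (PP2C49), 0.04 (PP2C50), 0.27 (PP2C51) and -0.13 (PP2C53), with both signs among them. Among the 5 listed loci on each side of every member, 78 had an adjusted p, of which 1 rose and 1 fell (2.56%), against 7.58% of all tested genes, and 5 passed the adjusted p, against 18.0% of all tested genes. The locus that fell was LOC_Os05g51520, named after its value was seen, which follows PP2C53 directly in the order of identifiers. Its log2 fold change was -0.61 ± 0.14 (adjusted p = 0.000214), whereas PP2C53 itself was at -0.13 ± 0.08. The locus that rose, LOC_Os05g49760 near PP2C51, had a mean normalized count of only 6.5 (3.76 ± 1.11, adjusted p = 0.00615).

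Other genes of abscisic acid signalling were examined in 4 further lists, of receptors, kinases, transcription factors and genes induced by the hormone. Of 28 tested genes in these lists, 1 rose and none fell, where 7.58% of all tested genes were called, and 3 passed the adjusted p, where 18.0% of all tested genes did. Of the PYL receptors, which inhibit the phosphatases when abscisic acid is bound, 7 of 9 were tested and none was called. The locus listed as PYL6 (LOC_Os03g18600) passed the adjusted p but not 1.5-fold, with 886 normalized reads in oschz1 and 1157 in wild-type (-0.39 ± 0.08, adjusted p = 3.6e-05). The highest receptor value was that of the locus listed as PYL3 (LOC_Os02g13330), 29 normalized reads in oschz1 and 14.4 in wild-type (1.01 ± 0.45, adjusted p = 0.11), and the lowest was that of LOC_Os05g39580, listed as PYL5, with 7.93 in oschz1 and 11.0 in wild-type (-0.47 ± 0.64, adjusted p = 0.727). The median log2 fold change of the receptors was 0.01.

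Of the 10 SAPK kinases, none was called, where 7.58% of all tested genes were. Among genes of like mean, the called share ran from 1.71% near SAPK8 to 14% near SAPK9. The 95% intervals of all 10 kinases lay within 1.5-fold, against 56.7% of all tested genes. The list holds the whole kinase family, and which of its members these phosphatases act on was not examined. Among genes of like mean, the share with intervals within 1.5-fold was 53.8% near SAPK9, 77.1% near SAPK10 and 88.7% or more near each of the other kinases. SAPK4 (LOC_Os01g64970) passed the adjusted p but not 1.5-fold: its level was 3460 normalized reads in oschz1 and 2646 in wild-type (0.39 ± 0.05, adjusted p = 3.94e-12). SAPK4 also had the highest fold change of the kinases, and the lowest was that of SAPK1 (LOC_Os03g27280; -0.21 ± 0.09, adjusted p = 0.112). SAPK2 (LOC_Os07g42940), the kinase bound by PP2C30, was at 1626 normalized reads in oschz1 and 1698 in wild-type (-0.06 ± 0.06). The median log2 fold change of the kinases was 0.09.

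**Figure D4:**
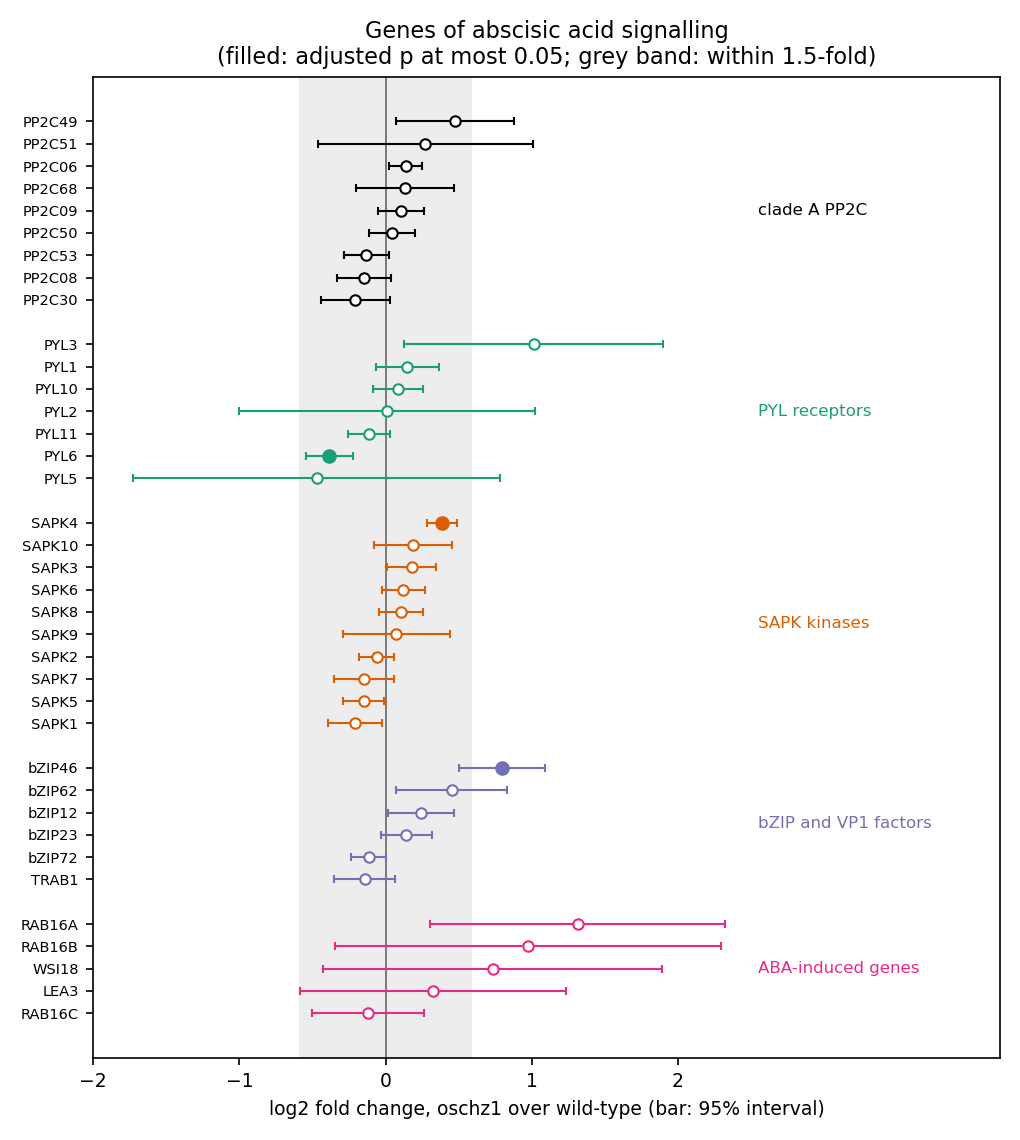
Log2 fold change in oschz1 over wild-type with 95% intervals for the tested genes of abscisic acid signalling, grouped as phosphatases, receptors, kinases, transcription factors and genes induced by abscisic acid; filled circles passed an adjusted p of 0.05 and the grey band is the range within 1.5-fold. Filled circles are seen for the locus listed as PYL6 (-0.39), SAPK4 (0.39) and the locus listed as bZIP46 (0.80), and none for a phosphatase.

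Of the 8 transcription factor genes of the bZIP and VP1 list, 6 were tested and, against 6.24% of all tested genes, 1 rose. It was LOC_Os06g10880, listed as bZIP46, an activator of drought and abscisic acid responses, with 272 normalized reads in oschz1 and 157 in wild-type, a log2 fold change of 0.80 ± 0.15 (interval 0.50 to 1.09, adjusted p = 2.48e-06). It was the member of the 4 lists that passed both thresholds. The lowest tested factor was TRAB1 (LOC_Os08g36790), at -0.14 ± 0.11 (adjusted p = 0.426), and the median over the 6 factors was 0.19. VP1 and the locus listed as bZIP10, factors best known from seeds, had mean normalized counts of 1.2 and 0.681 and no adjusted p.

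Of 6 genes that abscisic acid induces, 5 were tested. None was called, where 7.58% of all tested genes were, and none passed the adjusted p, where 18.0% did. With 5 genes, this absence of calls is not a result about them. The log2 fold change was above 0 for 4 of the 5 and below 0 for 1. Their median log2 fold change was 0.73 with a median SE of 0.52. The highest value was that of the locus listed as RAB16A (LOC_Os11g26790), a dehydrin gene with 23.0 normalized reads in oschz1 and 9.26 in wild-type (1.31 ± 0.52, interval 0.30 to 2.32, adjusted p = 0.0574). The lowest was that of RAB16C (LOC_Os11g26760), with 116 in oschz1 and 126 in wild-type (-0.12 ± 0.20, adjusted p = 0.786). Except for RAB16C, these genes had mean normalized counts of 17.5 or less, and their intervals reached beyond 1.5-fold.

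Relative depth, read from size factors recovered from the table, was 0.596 to 1.49 in oschz1 and 0.738 to 1.59 in wild-type, with means of 1.09 in oschz1 and 1.05 in wild-type, the genotypes being told apart by the direction of the fold changes. The label of seedling tissue was examined with markers. The leaf genes CAB1R and the loci listed as PSBS1 and RBCS4 had mean normalized counts of 227551, 43982 and 23023. Of 4 root genes, the silicon channel gene LSI1 was at 232, and NRT2.1 and the locus listed as RCC3 were at 1.41 and 0.698. The identifier taken for LSI2 (LOC_Os03g01700) was not among the 30020 genes, so that no level can be given for it. Leaf markers were thus high, and of the root markers only LSI1 had more than a few reads. The 3 leaf genes CAB1R, PSBS1 and RBCS4 had log2 fold changes of -0.21, -0.27 and -0.09, of which that of PSBS1 passed the adjusted p, and their part in the phosphatase values was not tested. OsChz1 itself was not examined here, so that the genotype labels were not checked against the targeted gene.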

How the data were processed

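RNA-seq was made from 3 oschz1 and 3 wild-type seedling samples, grouped by the genotype in the labels. According to the methods, the authors used cutadapt for trimming, HISAT2 for alignment to the MSU rice genome, SAMtools to keep unique alignments, featureCounts for counts per gene and DESeq2 for the comparison. The libraries were stranded, but the setting for strand in featureCounts was not found in those methods, and an antisense neighbour could add to a gene's count. Reads shared by near-identical copies were dropped with the unique-alignment filter. The deposited table gives the mean normalized count, a signal averaged by the authors over 6 libraries. It also gives the authors' log2 fold change and SE, their Wald score and two-sided p-values, with Benjamini-Hochberg adjusted p-values for 25945 of 30020 genes. These comparison columns hold the authors' own test; no columns of single libraries were present (0 unused), so that it was used as the test. The count model foreseen for values of single libraries could not be fitted.

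The statistic equalled the fold change over its SE (largest difference 8.23e-07). The header names no numerator: positive values were taken as higher in oschz1, since the study describes more genes upregulated than downregulated in the mutant and 1619 of the 1967 called genes are positive. The 6 size factors were recovered from low normalized means that recurred among genes. With these factors, the normalized means of all 2243 genes under 0.7 (100%) were sums of whole reads within 1e-06. This check used low means of the same kind. Genotype levels were computed from mean and fold change, and dispersions from the SE. Intervals are normal at 95%. Genes of like mean lay within 1.3-fold of a member's mean, a band chosen after values were seen. Scripts (Python 3.11.15, SciPy 1.17.1) were tested on simulated data.

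Members and lists were chosen with earlier results of these data known. Named were all members and, in each other list, genes past the adjusted p and those with the highest and lowest tested fold change; SAPK2, VP1 and bZIP10 were added after their values were seen. Symbols were paired with identifiers from general knowledge and checked against RefSeq names (assembly ASM3414082v1) by chromosome: 31 of 49, including all 9 phosphatases, lay on the chromosome of the identifier, and 18 were not matched ("listed as"). In order along the chromosome, 1 of 50 matched pairs disagreed, that of PYL5 and PYL11, names that RefSeq gives to the same gene. No gene sequences were used.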

Additional observations from a re-analysis of the deposited data

How the results depend on the processing

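No member was called under any of 9 other settings: a fold change of at least 2 or none, an adjusted p of at most 0.1 or 0.01, no filter on low counts, means of at least 10 or 50 (which left 8 members in), centred fold changes, or a t distribution with 4 degrees of freedom. No member reached 1.5-fold: the highest, PP2C49, was at 0.47 on the log2 scale, or 0.49 when centred, against 0.58. Settings that kept a fold limit could therefore not call a member, and their outcome adds no support. Only the setting without a fold threshold could have come out otherwise. Without a fold change threshold and with an adjusted p of at most 0.1, a setting chosen after seeing the data, 2 members passed, PP2C06 (0.14) and PP2C49 (0.47), against 21.9% of tested genes (5694). The adjusted p of PP2C06 ranged from 0.0462 to 0.374 and that of PP2C49 from 0.0801 to 0.377 over the 9 settings. The lowest value of PP2C06 came from centring and was under 0.05, at a fold change below 1.5. Over the whole table, the 1967 calls became 1266 at 2-fold, 4683 without a fold threshold, 1311 at means of at least 50 and 443 with the t distribution. No member's fold change changed sign with centring. No paired analysis was possible because the table has no values of single libraries, which also left out the omission of single replicates. The low number of reads (102 in oschz1 and 81 in wild-type) and the fitted dispersion (25.4% as a coefficient of variation) both enter the SE of PP2C51, the largest among the members.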
